A study of Mus musculus with 4 samples.

Results

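The regions described here are autosomal H3K9me3 islands that lie over genes of long non-coding RNAs (lncRNAs) and not over protein-coding genes. Islands are stretches of enrichment that the authors' caller joined from neighbouring windows. An island was taken when it overlapped a RefSeq lncRNA gene body by at least 1 bp, overlapped no protein-coding gene body and lay under 250 kb from a protein-coding gene. Of 19984 autosomal islands on day 0, 1431 met this rule (7.16%, 95% Wilson interval 6.81 to 7.53%). On day 3 they were 2154 of 47545 (4.53%, 4.35 to 4.72%), so that 3585 of 67529 islands in both lists are described. They are called lncRNA-only islands below.

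The study mapped trimethylation of lysine 9 on histone H3 (H3K9me3) by native ChIP-seq, in which chromatin is cut with micrococcal nuclease without cross-linking, in wild-type CD8+ T cells of the mouse strain C57BL/6. The day 0 cells were naive. The day 3 cells had been cultured in vitro with antibodies to CD3 and CD28, which stimulate the T cell receptor complex and a costimulatory receptor, and with interleukin-2 (IL-2). The labels give 1 H3K9me3 library per day and 2 input libraries, which were not analysed here, and do not say how many mice the cells came from.

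H3K9me3 is the mark of heterochromatin that is bound by HP1 proteins and laid down by enzymes such as SUV39H1, SUV39H2 and SETDB1. It is known for keeping repeats, imprinted domains and genes of other lineages silent. LncRNAs are transcribed by RNA polymerase II and carry no long reading frame, and many lie beside genes of transcription factors. Some host miRNAs, short RNAs that pair with target mRNAs through bases 2 to 8, the seed.

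With 1 library per day there is no replicate and no test, and every difference below is between 2 libraries. Intervals cover counting error only, since reads from PCR libraries are not independent molecules. The lists held 3402787 reads in islands on day 0 and 10423178 on day 3, and neither list is scaled for depth. The least dense island of the day 0 list held 23.6 reads per kb and that of the day 3 list 34.1. The median lncRNA-only island of day 0 held 34.0, so that a day 0 island with no counterpart on day 3 need not be a loss of the mark. Of 10 marker genes of CD8+ T cells, Cd3d, Cd3e, Cd3g, Cd8a, Cd8b1, Thy1, Lck, Zap70 and Cd2 bore no island on either day and Ptprc bore 2 and 5. An island list holds no RNA levels, so this does not check the cell type.

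Sequences are shown first for 4 covered starts of lncRNAs nearest to T cell genes. They were chosen after their values were seen, to show a start covered on both days, on day 0 and, poorer and richer in CpG, on day 3. Other covered starts of lncRNAs nearest to T cell genes, such as those of 9130015A21Rik (Ahr), Gm31583 (Bcl6), Gm35154 (Prdm1) and Gm46343 (Id2), are not printed. Each is a window from RefSeq (GRCm38.p6, the assembly that mm10 names) of 300 bases, from 250 before the start to 50 from it, 5′ to 3′ on the plus strand, with each CpG in capitals. Gm28643 lies beside Zeb2, and its window at chr2:45155223-45155522 lay in an island on both days. Gm40505, beside Klf2, has the window chr8:72300397-72300696, inside an island on day 0 and in none on day 3. Gm39650, 21.5 kb from Ctla4, has the window chr1:60886839-60887138, and Gm33462, 142.4 kb from Tox, the window chr4:7133723-7134022. Both windows lay in islands on day 3 and in none on day 0.
Gm28643: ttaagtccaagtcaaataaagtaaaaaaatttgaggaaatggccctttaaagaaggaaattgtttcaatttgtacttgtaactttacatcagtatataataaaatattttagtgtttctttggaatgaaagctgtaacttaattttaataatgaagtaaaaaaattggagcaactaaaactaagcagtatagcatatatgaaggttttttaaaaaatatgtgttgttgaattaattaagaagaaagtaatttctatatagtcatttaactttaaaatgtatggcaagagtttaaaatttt
Gm40505: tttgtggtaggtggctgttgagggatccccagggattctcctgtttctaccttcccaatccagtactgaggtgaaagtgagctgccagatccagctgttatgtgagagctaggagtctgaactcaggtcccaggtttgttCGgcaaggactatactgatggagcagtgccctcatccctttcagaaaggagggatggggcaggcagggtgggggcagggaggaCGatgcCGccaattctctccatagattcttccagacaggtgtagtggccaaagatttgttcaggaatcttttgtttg
Gm39650: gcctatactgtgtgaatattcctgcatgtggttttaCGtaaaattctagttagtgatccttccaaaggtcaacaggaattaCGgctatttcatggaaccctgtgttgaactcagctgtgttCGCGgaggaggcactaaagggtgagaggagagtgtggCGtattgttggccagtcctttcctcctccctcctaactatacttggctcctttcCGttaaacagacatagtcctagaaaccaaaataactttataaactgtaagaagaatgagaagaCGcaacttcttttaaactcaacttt
Gm33462: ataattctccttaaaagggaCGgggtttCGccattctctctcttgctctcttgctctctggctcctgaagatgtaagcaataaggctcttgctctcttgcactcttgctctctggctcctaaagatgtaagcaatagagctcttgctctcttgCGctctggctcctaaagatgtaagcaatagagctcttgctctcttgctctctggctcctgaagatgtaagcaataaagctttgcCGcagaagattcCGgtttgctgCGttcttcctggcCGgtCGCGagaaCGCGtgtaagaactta
The Gm28643 window holds 0 CpG and 23.0% G and C. The Gm40505, Gm39650 and Gm33462 windows hold 3, 7 and 11 CpG, and 52, 42.0 and 48.3% G and C.

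Over all lncRNAs, 7097 starts lay in lncRNA-only sequence, and few were in an island. On day 0, 231 starts (3.25%, 2.87 to 3.69%) lay in a lncRNA-only island, on day 3 193 (2.72%, 2.37 to 3.12%), and 15 on both days, among them that of Gm28643. Covered starts were poorer in CpG than the rest. The median was 48.0% G and C and 4 CpG over all starts, 45% and 3 CpG in the day 0 islands, 43.3% and 2 CpG in the day 3 islands, and 42.3% and 2 CpG at the 15. Windows with at least 10 CpG were 16.0% of all, 2.16% of those covered on day 0 and 4.66% of those covered on day 3. The window of Gm33462 is one of the 9 such windows covered on day 3.

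Promoter motifs were searched as letters on both strands. TATAAA, the core of a TATA box, was in 15.5% of all windows, 19.9% of those covered on day 0, 25.4% of those covered on day 3 and 7 of the 15 covered on both (46.7%). TGCCGC, the letters bound by the zinc finger protein ZFP57 at imprinted regions, was in 5.95% of all windows, 3.90% on day 0, 2.07% on day 3 and 0 of the 15. Of the windows printed above, Gm39650 holds TATAAA, and Gm40505 and Gm33462 hold TGCCGC. The shares of TATAAA go with the share of A and T in the same windows. Those of TGCCGC, which itself holds a CpG, go with the share of G and C. The part of base composition in either was not tested.

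The miRNA hairpins under these islands are shown because they are few and hold 3 pairs that share a seed. Of 919 autosomal hairpins in the RefSeq table, 21 lay in any island on day 0 and 53 on day 3, of which 3 and 10 were in lncRNA-only islands. Mature sequences are given 5′ to 3′ with the seed in capitals.
miR-17-5p: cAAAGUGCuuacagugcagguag
miR-20a-5p: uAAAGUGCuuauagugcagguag
miR-18a-5p: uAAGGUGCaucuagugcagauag
miR-19a-3p: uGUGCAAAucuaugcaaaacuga
miR-19b-3p: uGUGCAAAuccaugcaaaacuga
miR-92a-3p: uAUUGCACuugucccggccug
miR-181a-5p: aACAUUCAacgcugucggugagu
miR-181b-5p: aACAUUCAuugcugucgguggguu
miR-16-5p: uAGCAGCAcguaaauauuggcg
miR-365-3p: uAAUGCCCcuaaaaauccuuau
The pairs with 1 seed are miR-17-5p with miR-20a-5p, miR-19a-3p with miR-19b-3p, and miR-181a-5p with miR-181b-5p. miR-18a-5p differs from the first pair in its seed letters.

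The hairpins Mir17, Mir18, Mir19a, Mir20a, Mir19b-1 and Mir92-1, a cluster known for driving proliferation of lymphocytes, all lay in 1 island of day 3 and in none on day 0. That island (chr14:115043001-115047800) held 225 reads (exact 95% Poisson interval 197 to 256), or 46.9 per kb. It covered the whole RefSeq body of the host gene Mir17hg (2.34 kb), whose annotated body holds Mir92-1 whole and none of the other hairpins whole. Its nearest protein-coding gene is Gpc5, a glypican of the cell surface. Among the denser islands (those at or above the median density of their list) Mir17hg had none left.

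Mir181a-1 and Mir181b-1, of the family known for tuning T cell receptor sensitivity in thymocytes, lay in a day 3 island (chr1:137961801-137969600) of 412 reads (373 to 454), and in none on day 0. The island overlaps the lncRNA Gm4258, and the hairpins lie past its annotated body. Gm4258 lies 99.8 kb from Ptprc, which encodes the leukocyte antigen CD45. It had 3 islands over 12.2 kb on day 0 and 5 over 28.2 kb on day 3, of which 6.20 kb were the same bases. Next to it, Gm34353 had none on day 0 and 2 on day 3 over 9.18 kb. The longer of the 2, with 786 reads (732 to 843) over 15.2 kb, lies mostly past the annotated body of Gm34353. These genes at Ptprc were singled out after their values were seen.

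Mir16-1, known as a brake on lymphocyte growth, lay in an island of its host Dleu2 on both days. The day 0 island held 172 reads (147 to 200) and the day 3 island 320 (286 to 357). Over Dleu2 as a whole, 1 island covered 4.60 kb on day 0 and 4 covered 16.4 kb on day 3, including the densest lncRNA-only island of day 3 among those of at least 2 kb (75 reads per kb). Day 0 alone had Mir31 under an island of Gm49890 with 203 reads and Mir365-1 under the long island of Gm32817 described further on. The last hairpin, Mir3966, lay in a day 3 island of Gm34114 with 349 reads, beside Dcn, which encodes the matrix proteoglycan decorin.

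Bases under islands were then set against the sequence that could bear them. LncRNA-only sequence, which is lncRNA bases outside protein-coding bodies and under 250 kb from one, spans 135.9 Mb. Islands covered 4.58% of it on day 0 (6.22 Mb) and 5.78% on day 3 (7.86 Mb), a ratio of 1.26. Protein-coding bodies were covered over 5.13% and 9.51%, a ratio of 1.85. Sequence in neither gene class at the same distances was covered over 3.71% and 6.37% (1.72), and all autosomes over 4.08% and 8.07% (1.98). On day 0 lncRNA-only sequence was thus covered above the autosomes as a whole, and on day 3 below them. Its ratio was below that of all sequence on all 19 autosomes.

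The direction for lncRNA-only sequence turned with the length of the day 3 list. With the day 3 list cut to its 19984 most read-rich islands, the ratio was 0.718 for lncRNA-only sequence, 1.21 for protein-coding bodies and 1.18 for all autosomes. Among islands at or above the median density of their list the ratios were 1.18, 2.01 and 2.0. In each of these selections lncRNA-only sequence had the lowest of the 3 ratios.

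**Figure D1:**
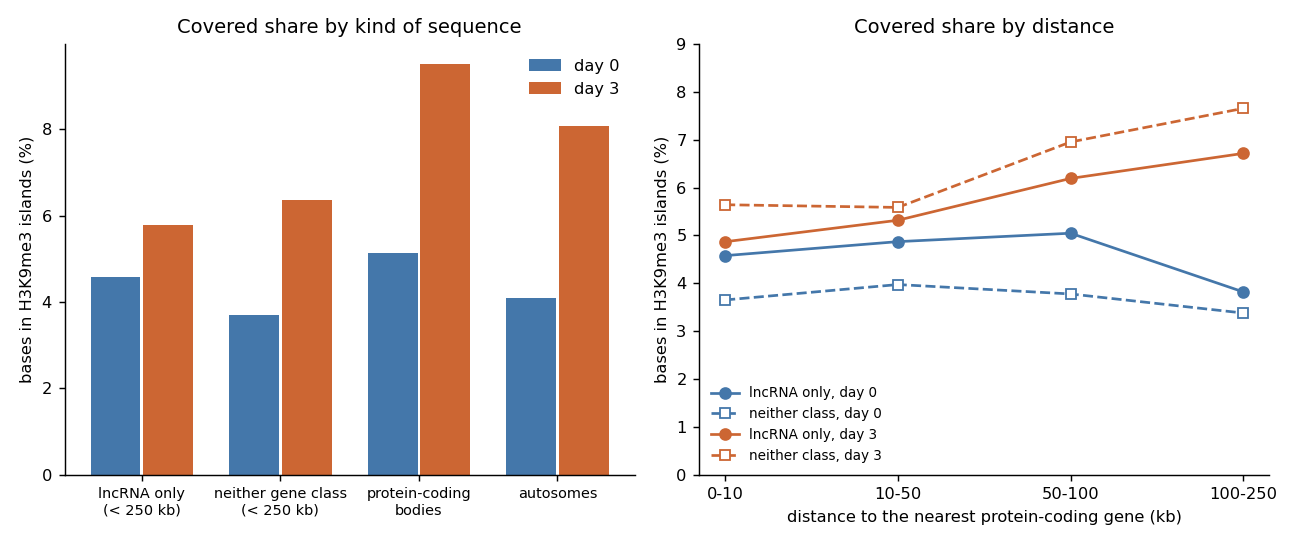
The left panel gives the percentage of bases in islands on day 0 (blue) and day 3 (orange) for 4 kinds of sequence, with 1 library per day and so no error bars. The right panel gives it by distance to the nearest protein-coding gene in kb for lncRNA-only sequence (filled) and sequence in neither gene class (open). LncRNA-only sequence went from 4.58 to 5.78% and protein-coding bodies from 5.13 to 9.51%.

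The ratio of the days was highest in the sequence farthest from protein-coding genes. Within 10 kb of a gene, lncRNA-only sequence was covered over 4.58% on day 0 and 4.87% on day 3. At 10 to 50 kb the values were 4.87 and 5.32%, and at 50 to 100 kb 5.05 and 6.19%. At 100 to 250 kb they were 3.82 and 6.71%, so that the ratio of the days went from 1.06 in the nearest bin to 1.76 in the farthest. Sequence in neither class went from 1.54 to 2.27 over the same bins, with 1.41 at 10 to 50 kb. At equal list lengths the 4 ratios of lncRNA-only sequence were 0.637, 0.600, 0.712 and 0.990, and among the denser islands (at or above the median density of their list) 0.991, 1.15, 1.07 and 1.53. The farthest bin had the highest ratio in each selection, and the nearer 3 bins had no common order. The day 0 islands lay a median of 37.7 kb from the gene (quartiles 12.6 and 84.7 kb) and those of day 3 52.6 kb (19.2 and 114.3 kb). Under 10 kb lay 299 (20.9%) and 338 (15.7%).

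The islands lay more often on the side of the gene's start than of its end. Where the nearest gene has starts on 1 strand in the table, 696 of 1076 islands were on the start side on day 0 (64.7%, 61.8 to 67.5%) and 990 of 1640 on day 3 (60.4%, 58.0 to 62.7%). Of the bases of lncRNA-only sequence with such a gene, 58.3% are on that side, which is a share of bases and not of islands. Several islands can have the same nearest gene, so the intervals do not test the difference from it. The start side was covered over 4.92% on day 0 and 5.99% on day 3, and the end side over 4.05 and 5.51%. Islands in neither gene class were on the start side in 56.1% and 55.4%.

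At the 250 kb border, the day 0 island just inside lies over D030024E09Rik, 246.7 kb from Myc, with 155 reads. The one just outside lies over Gm6145, 251.7 kb from Spry2, with 133. On day 3 they lie over Gm41059, 249.96 kb from Plk2 (145 reads), and Gm40159, 250.2 kb from 4930519L02Rik (223 reads).

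LncRNA-only islands were like other islands in size. On day 0 their median length was 4800 bp (quartiles 3800 and 6000), on day 3 it was 3600 bp (2800 and 4800), and that of all other autosomal islands was also 4800 and 3600. In reads per kb their median density was 34.0 for day 0 and 52.4 for day 3, against 34.1 and 52.9 for the others. The longest spanned 20.8 kb on day 0 and 16.4 kb on day 3. Their density ran from 26.5 to 80.7 and from 35.6 to 112 reads per kb.

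**Figure D2:**
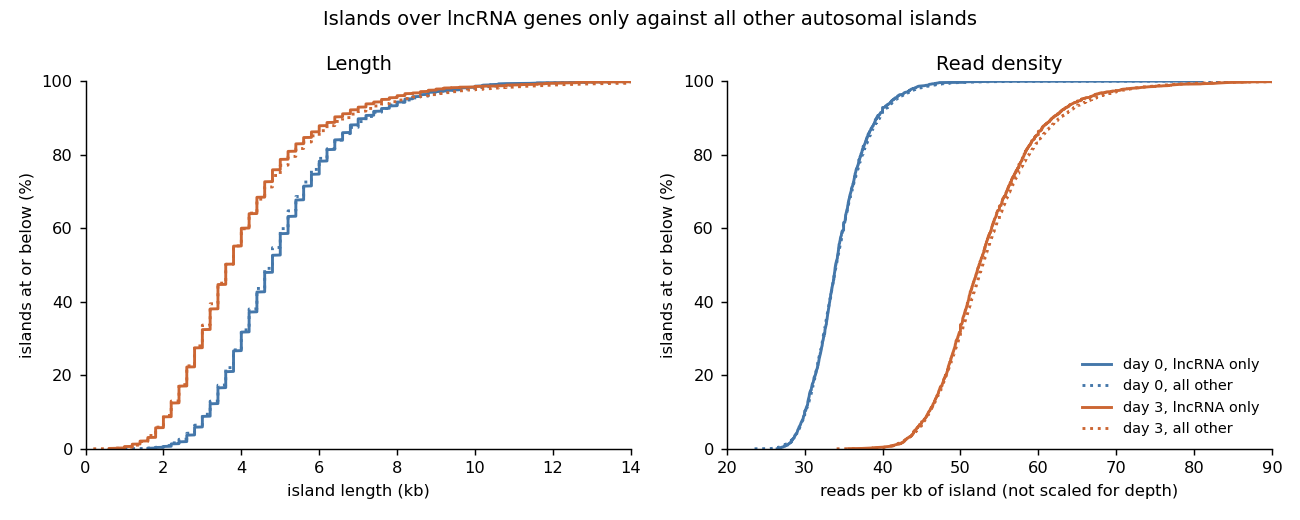
Cumulative percentage of islands at or below a given length in kb (left) and read density in reads per kb (right), for lncRNA-only islands (solid) and all other autosomal islands (dotted) on day 0 (blue) and day 3 (orange). The solid and dotted lines of a day nearly coincide, with medians of 4800 bp on day 0 and 3600 bp on day 3.

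Counted from day 0, a smaller share of these islands met an island of the other day than of the rest. Of the day 0 lncRNA-only islands, 334 (23.3%, 21.2 to 25.6%) overlapped an island of day 3 by at least 1 bp, against 33.6% of all autosomal islands of that day, 34.4% (33.7 to 35.1%) of all the others, 36.4% of those over protein-coding bodies only and 32.2% of those in neither class. The share was 30.9% for islands over both gene classes and 33.6% (28.1 to 39.6%) for islands over lncRNAs at 250 kb or more from a protein-coding gene, so the lower share was not general to lncRNAs. Counted from day 3 the share was 339 islands (15.7%, 14.3 to 17.3%), against 14.9% of all and 14.8% (14.5 to 15.1%) of the others. With the day 3 list cut to the length of the day 0 list the lncRNA-only shares were 13.3% and 19.7%, against 20.5% and 20.3% of all islands. Among islands at or above the median density of their list they were 14.6% and 10.3%, against 20.7% and 9.01%.

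Of 12408 autosomal lncRNA genes, 2117 bore a lncRNA-only island on some day, 1218 on day 0 and 1397 on day 3. On day 0 alone it was 720, on day 3 alone 899 and on both 498. At equal list lengths the order turned, with 916 on day 0 alone, 396 on day 3 alone and 302 on both. Counting any island, 8.18% of all lncRNA genes bore one on day 0 alone, 12.4% on day 3 alone and 6.81% on both. Of protein-coding genes these shares were 7.14, 11.9 and 16.8%. Of the 498, 268 had at least 1 base covered on both days, and in 230 the islands of the days lay over different bases. This split was not counted for protein-coding genes. Over all autosomal islands of day 0, 33.6% overlapped an island of day 3. The 2117 had longer bodies than all lncRNAs (median 21.4 against 8.39 kb), and 1370 had 1 island over both days together.

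More kb were covered on day 3 in 1150 of the 2117, on day 0 in 951, and 16 were equal. The day 3 list is the longer one, and this count was not made at equal list lengths or over other genes. In those with an island, the median covered share of the body was 18.6% on day 0 and 16.4% on day 3. An island covered 42 bodies whole on day 0 and 24 on day 3. Most of the genes (2010 of 2117) bear predicted symbols of the Gm or Rik kind.

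**Figure D3:**
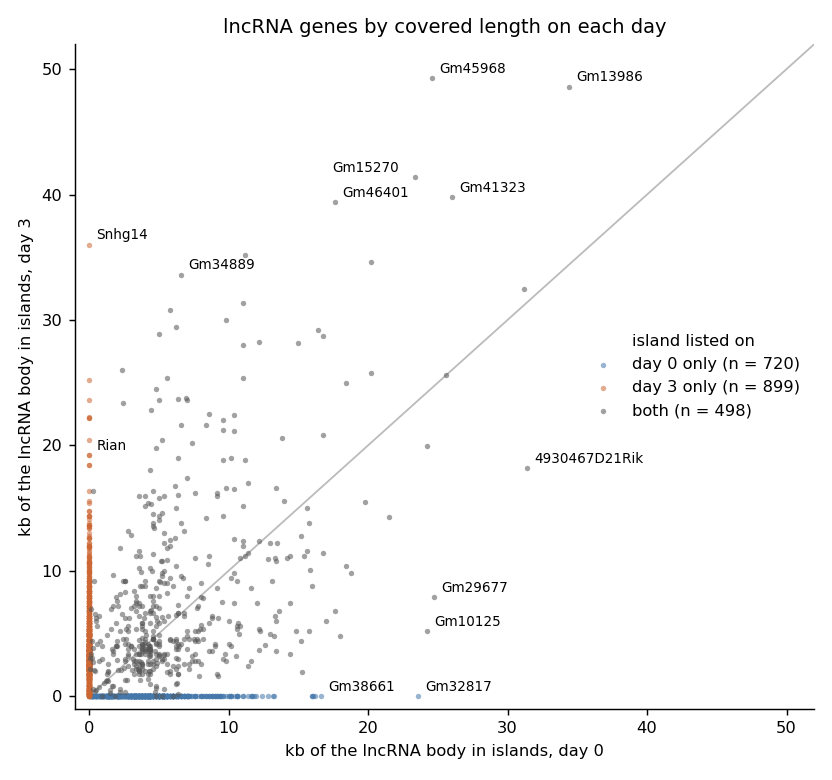
Each point is 1 of 2117 lncRNA genes, by kb of its body in lncRNA-only islands on day 0 (x axis) and day 3 (y axis), with 720 listed on day 0 only (blue), 899 on day 3 only (orange) and 498 on both (grey); the line marks equal values. Gm13986 and Gm45968 stand highest on day 3, and Snhg14 lies on the y axis at 36 kb.

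T cell genes came next, by 4 lists of naive and memory, effector, inhibitory and helper or regulatory T cell genes. Of 78 autosomal genes on them, 13 were the nearest protein-coding gene of a lncRNA-only island on day 0 (16.7%) and 15 on day 3 (19.2%), against 5.14% and 5.71% of all protein-coding genes. T cell genes also have such sequence beside them more often, 45 of 78 (57.7%) against 6552 of 20665 (31.7%). Among those with it, the shares were 28.9% and 33.3% for the T cell genes and 16.1% and 18.0% for all. The T cell genes with it also have more of it, a median of 11.4 kb per gene against 9 kb, and these shares are not adjusted for that. Bases nearest to a T cell gene were covered over 5.37% on day 0 and 8.57% on day 3, against 4.58 and 5.78% for all.

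The 4 lists did not move alike. Of 18 helper and regulatory genes, 0 were the nearest gene of a day 0 island and 4 of a day 3 island, with 0 and 11.2% of their bases covered. The inhibitory list went from 5.60 to 20.8% with 2 of 16 genes on each day. Such sequence spans only 0.256 Mb beside 10 helper and regulatory genes and 0.129 Mb beside 4 inhibitory genes, so a few islands set these shares. The naive and memory list went from 3.58 to 5.86% with 5 of 20 genes on each day. The effector list went the other way, from 9.20 to 7.09%, with 6 of 24 genes on day 0 and 4 on day 3. For comparison, 14 of 70 developmental and neuronal genes were nearest to an island of day 0 and 21 to one of day 3, with 2.23 and 3.98% of bases covered. Of those with such sequence these were 25 and 37.5%, with a median of 45.4 kb of it per gene, so shares of this size were not particular to T cell genes. Cut to equal list lengths, 9 of the 78 T cell genes were nearest to an island on day 3 (11.5%), against 3.00% of all protein-coding genes.

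Among helper and regulatory genes, Ahr, Ikzf2, Maf and Il21 were the nearest genes of islands, and on day 3 alone. Ahr encodes a ligand-activated receptor for aromatic compounds. 9130015A21Rik, 137.3 kb from it, was covered over 11.1 kb by 3 islands with 744 reads together on day 3, and Gm40388 beyond it over 5.0 kb. Ikzf2 encodes the Ikaros family factor Helios. Gm28497, 87.1 kb from Ikzf2, was covered over 8.29 kb by 1 island of 494 reads (451 to 540). Maf encodes a factor of helper T cells that make interleukin-4 and interleukin-10, and Gm30925, 123.3 kb from it, was covered over 4.2 kb. Gm12532 lies between Il2 and Il21, which encode T cell growth cytokines, and was covered over 1.79 kb. Among the denser islands Gm28497, Gm30925 and Gm12532 had none left, and among islands under 100 kb from a gene 9130015A21Rik, Gm40388 and Gm30925 had none. At equal list lengths Gm40388, Gm30925 and Gm12532 had none.

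Tox encodes a factor of exhausted and memory-like T cells. Gm33462, 142.4 kb from Tox and the owner of the CpG-rich window above, had no island on day 0. On day 3 it had 2, of 687 reads (637 to 740) and 156 reads (132 to 182), over 13.8 kb of its 28.7 kb. Gm33646, farther out, had 3.80 kb in islands of day 0 and 5.40 kb in those of day 3, with 1.20 kb in common, and among the denser islands over 3.80 kb less on day 3. Ctla4 encodes the inhibitory receptor for CD80 and CD86. Gm38137, which ends 14.7 kb from Ctla4 and lies on the side of Cd28, had 3.40 kb in its day 0 island and 7.60 kb in its day 3 island, with no base in common. Its day 3 island (376 reads, 339 to 416) also covered the whole of Gm39650 (0.446 kb). Neither Gm38137 nor Gm39650 had an island among the denser ones, and neither Gm33462 nor Gm33646 among those under 100 kb from a gene.

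Zeb2 encodes a zinc finger repressor of terminal effector cells. Gm28643 starts 15.0 kb from Zeb2 on mm10 chromosome 2 (45132441 to 45162940). It had 2 islands on day 0, with 183 (157 to 212) and 189 (163 to 218) reads, and 3 on day 3, with 271 (240 to 305), 231 (202 to 263) and 437 (397 to 480). They covered 10.4 and 16.6 kb, 8.80 kb of them on both days. Among the denser islands it had 0.600 kb less on day 3 than on day 0, so its direction depends on which islands count.

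Of the other effector genes, Prdm1, Myc, Ccl4, Ccl5 and Id2 had more covered beside them on day 0 and Gzmk on day 3. Prdm1 encodes the repressor Blimp-1, and Gm35154, 70.3 kb from it, had 13.1 kb in day 0 islands and 9.20 kb in day 3 islands. Myc drives growth of activated T cells. D030024E09Rik, 210.9 kb away on one side of Myc, was covered over 14.8 and 5.20 kb. Pvt1, the lncRNA 47.6 kb away on the other side, was covered over 5.80 and 4.60 kb. D030024E09Rik had 1.0 kb more on day 3 among the denser islands, and Pvt1 2.60 kb more on day 3 when only islands under 100 kb from a gene were taken. The chemokine genes Ccl4 and Ccl5 had Gm51868 (3.60 kb, 135 reads, 113 to 160) and Gm32650 (4.14 kb) beside them on day 0, and neither had an island on day 3. Gm46343, 207.7 kb from Id2, which encodes an inhibitor of E proteins, had 1.03 kb on day 0 alone. Gm41069 near Gzmk, which encodes granzyme K, had 3.40 kb on day 3 alone (201 reads, 174 to 231), which was lost at equal list lengths. Gm32650 had no island among the denser ones, and Gm46343 none where at least 50% of an island had to lie in a lncRNA.

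Factors of naive and memory cells stood beside islands in both directions. Klf2 keeps naive T cells quiescent and in circulation, and Gm40505, 16.9 kb from it, was covered whole on day 0 (1.51 kb, in an island of 134 reads, 112 to 159) and had no island on day 3. Myb had Gm33619 beside it with 1.42 kb on day 0 alone. Gm31583, 96.2 kb from Bcl6, a repressor of memory and follicular cells, had 4.27 kb (day 0) and 2.0 kb (day 3). Gm20098 near Satb1, an organiser of chromatin in thymocytes, had 3.60 kb (day 0) and 11.6 kb (day 3) with no base in common. Ets1, a factor of lymphoid genes, had Gm3331 (6.20 kb covered, 25.3 kb away) and Gm27162 (3.00 kb covered, 146.2 kb away) on day 3 alone. Eomes, a T-box factor, had Gm33088 (0.589 kb covered, 132.0 kb away) on day 3 alone. Gm11999 at Ikzf1, which encodes Ikaros, was covered over 12.2 and 12.4 kb, 4.2 kb of them in common, and over 3.0 kb less on day 3 with equal list lengths. Gm40505 and Gm33619 had no island among the denser ones, and Gm27162 and Gm33088 none at equal list lengths. The excess of Gm20098 on day 3 came from 8.0 to 0.200 kb at equal list lengths, and Gm3331 kept 3.80 kb.

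**Figure D4:**
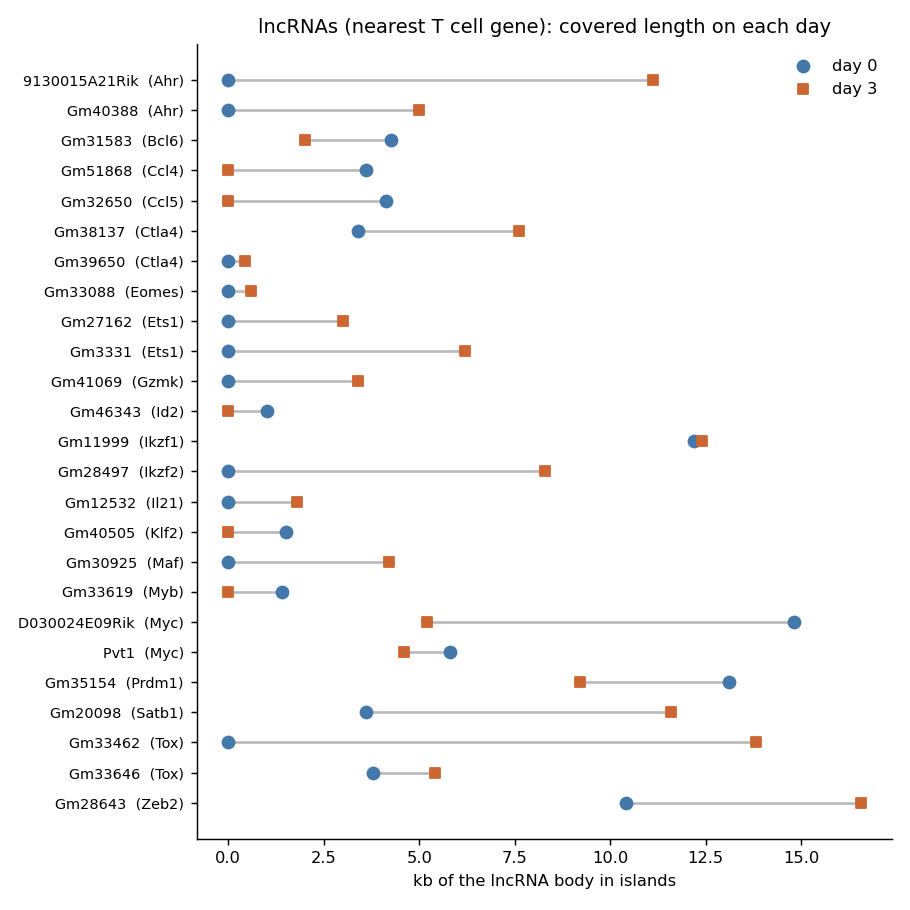
For each of 25 lncRNAs whose nearest protein-coding gene (in brackets) is on a T cell list, kb of the lncRNA body in islands on day 0 (blue circles) and day 3 (orange squares), with 1 library per day. Gm33462 at Tox and 9130015A21Rik at Ahr go from 0 to 13.8 and 11.1 kb, and D030024E09Rik at Myc goes from 14.8 to 5.20 kb.

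Of 61 autosomal lncRNAs with established names on a list of known lncRNAs, 15 bore such an island (24.6%), 7 on day 0 (11.5%) and 11 on day 3 (18.0%). Of all 12408 lncRNA genes these shares were 17.1, 9.82 and 11.3%. The shares are not adjusted for body length, and lncRNAs with such an island had longer bodies than all lncRNAs (median 21.4 against 8.39 kb). Snhg14 and Rian, at imprinted loci, had the most bases covered on day 3. Snhg14, the long host transcript of small nucleolar RNAs that runs antisense to Ube3a, had no lncRNA-only island on day 0 and 9 on day 3, over 36 kb with 1987 reads. These islands lie near Ube3a and near Snurf and covered 3.06% of its body, which spans 1177 kb. The body overlaps Ube3a, Snurf and Snrpn. Islands over protein-coding genes, or 250 kb or more from one, were not counted on either day. Rian, of the Dlk1 and Dio3 imprinted domain, had none on day 0 and 6 on day 3 over 19.2 kb with 1056 reads. Meg3 of the same domain went the other way, with 1 island on day 0 (3.80 kb, 126 reads, 105 to 150) and none on day 3. The Meg3 island was lost among the denser islands, and the 36 and 19.2 kb of Snhg14 and Rian fell to 22.8 and 5.20 kb at equal list lengths.

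Of the others, Trp53cor1, a p53-induced transcript beside Cdkn1a, was covered over 6.60 kb on day 0 alone, Haglr in the Hoxd cluster over 3.80 kb and Carmn, a lncRNA of smooth muscle, over 4.00 kb. Lncenc1 and Platr20, named in embryonic stem cells, had 4.2 and 4.60 kb on day 3 alone. Six3os1 and Sox2ot, which lie at the neural factor genes Six3 and Sox2, had 3.00 and 3.60 kb on day 3 alone. The miRNA hosts Mir99ahg and Mir100hg had 7.60 kb on day 3 alone, and 5.40 kb on day 0 with 6.00 kb on day 3. Trp53cor1, Lncenc1, Platr20 and Sox2ot had no island left among the denser islands, and Lncenc1, Six3os1 and Sox2ot none at equal list lengths. Lncenc1, Mir99ahg and Mir100hg had none under 100 kb from a gene, and Mir100hg none among the denser islands. The excess of Mir99ahg on day 3 over day 0 was 4.60 kb at equal list lengths, 3.00 kb among the denser islands and 40.8 kb with no distance limit.

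**Figure D5:**
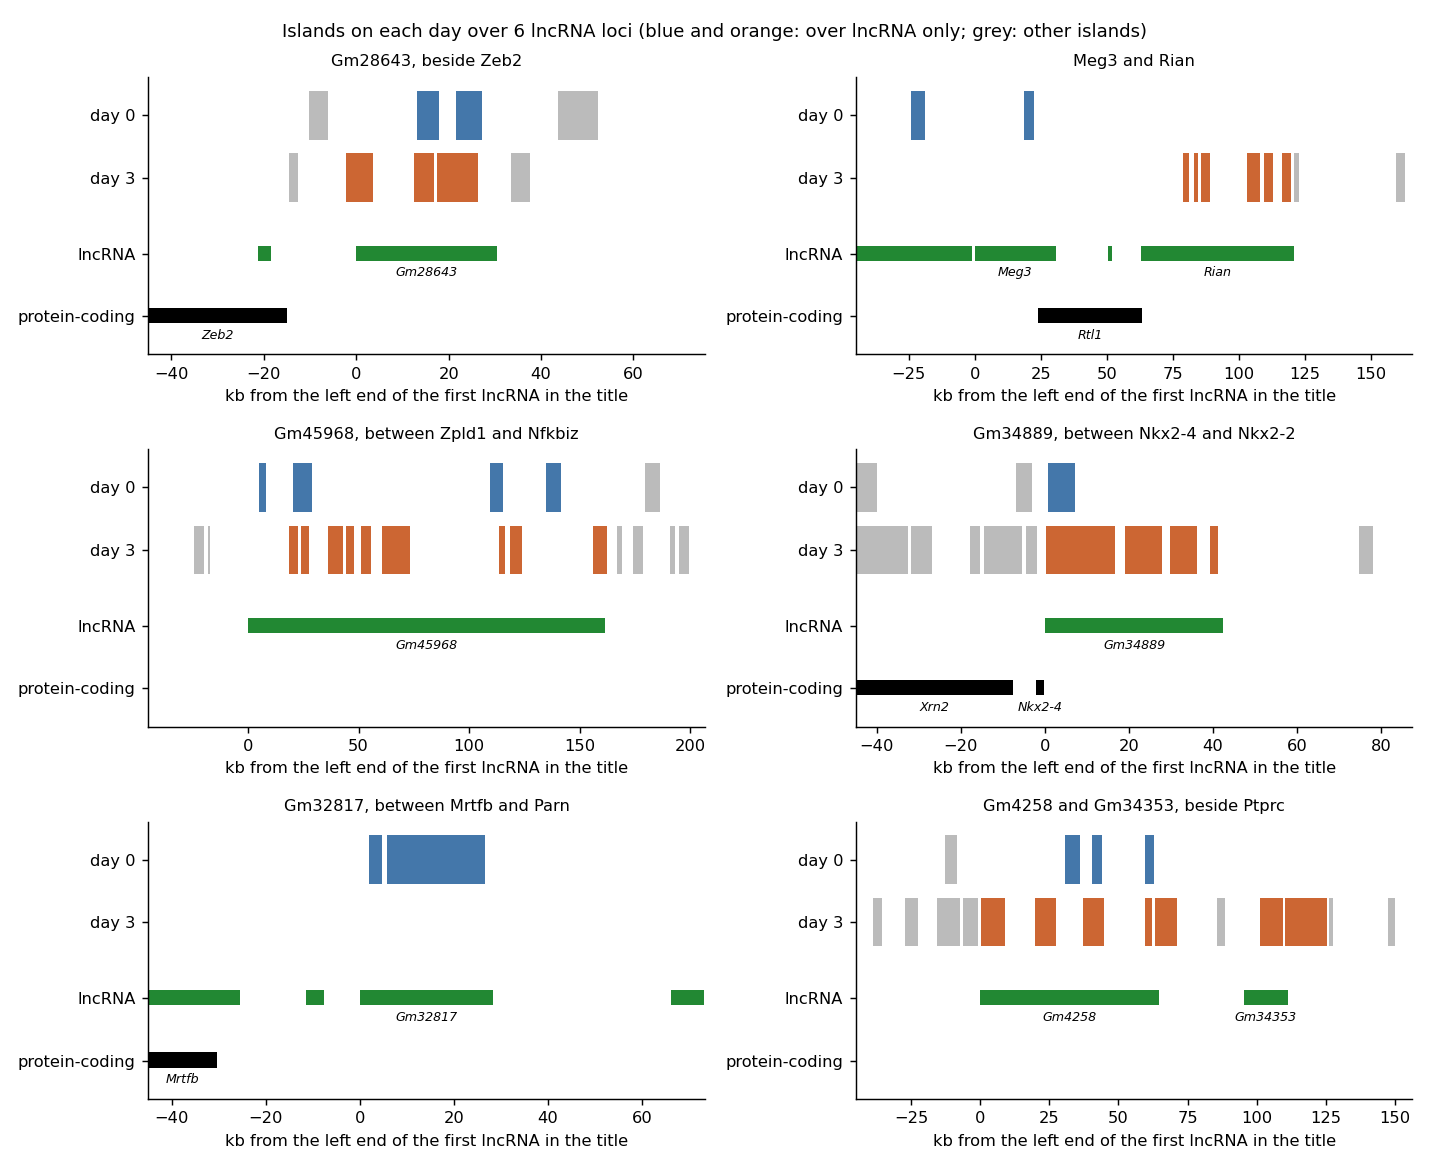
Islands on day 0 (blue) and day 3 (orange) over 6 lncRNA loci, with lncRNA bodies in green, protein-coding bodies in black, other islands in grey, and kb from the left end of the first lncRNA named in each title on the x axis. Gm28643 has islands on both days, Rian on day 3 alone and Gm32817 on day 0 alone.

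The lncRNAs with the most covered bases had long bodies, and several of them span a protein-coding gene. Gm13986 (253.9 kb), which ends 0.674 kb from Thbs1, the gene of the matrix protein thrombospondin 1, had 6 islands over 34.4 kb on day 0 and 9 over 48.6 kb on day 3, with 4.40 kb in common. Gm45968, between Zpld1 and Nfkbiz, a gene of an inducible NF-kB regulator, was covered over 24.6 and 49.3 kb. Gm15270, which spans Ccn2 next to Moxd1, was covered over 23.4 and 41.4 kb, Gm41323 at Med30 and Ext1 over 26 and 39.8 kb, and Gm46401 near Klf6 over 17.6 and 39.4 kb. A330093E20Rik had 11.2 and 35.2 kb and Gm10754 20.2 and 34.6 kb. Gm41323 and Gm10754 had 6.60 and 10.2 kb less on day 3 at equal list lengths, and Gm13986 18.4 kb less among islands under 100 kb from a gene. The 24.0 kb excess of A330093E20Rik on day 3 came to 0.800 kb at equal list lengths and among the denser islands and to 1.0 kb under 100 kb. That of Gm45968 came from 24.7 to 14.5 kb at equal list lengths and 7.26 kb among the denser islands, and that of Gm15270 from 18.0 to 5.80 and 10.4 kb. The excess of Gm46401 came from 21.8 to 10.2 and 7.0 kb. Gm45968 had no island under 100 kb from a gene.

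Gm28905, near Stxbp5, had 31.2 kb in day 0 islands and 32.5 kb in day 3 islands, and 2.60 kb were the same bases. At equal list lengths it had 12.1 kb less on day 3, and 0.400 kb less where at least 50% of an island had to lie in a lncRNA. Gm34489 near Cyria had 25.6 kb on each day, with 11.4 kb in common. 4930467D21Rik at Gk2, Gm29677 at Mc2r and Gm10125 beside Zeb1 had more on day 0, with 31.4, 24.7 and 24.2 kb against 18.2, 7.92 and 5.20 kb. Among the denser islands 4930467D21Rik and Gm10125 had 5.60 and 0.200 kb more on day 3.

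The excess on day 3 was widest at Snhg14 and then at Gm34889. Their order turned at equal list lengths (22.8 and 25 kb) and among the denser islands (20.2 and 27 kb). Gm34889 begins 0.100 kb from the homeobox gene Nkx2-4 and ends 48.5 kb from Nkx2-2, and it had 1 island on day 0 with 227 reads over 6.60 kb and 4 on day 3 with 2004 reads over 33.6 kb of its 42.5 kb. Its island at chr2:147085801-147102200 held 943 reads (884 to 1005), the most of any lncRNA-only island of day 3. A230006K03Rik at Gm51483, in the region between Snrpn and Ndn, had 0 and 25.2 kb, and Gm40287 near Trib2, a pseudokinase gene, 5.80 and 30.8 kb. The 25.2 kb of A230006K03Rik came to 9.60 kb at equal list lengths and 5.80 kb among the denser islands, and the excess of Gm40287 from 25 to 10 kb under 100 kb from a gene.

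The excess on day 0 was widest at Gm32817, which Gm53058 overlaps, between Mrtfb, which encodes a coactivator of serum response factor, and Parn, a deadenylase gene. They had 23.6 and 16.2 kb on day 0 and no island on day 3. Most of it was 1 island (chr16:13453801-13474600) of 20.8 kb and 745 reads (692 to 800), the longest lncRNA-only island of the day, which holds Mir365-1. Gm38661 at Cck, which encodes the peptide hormone cholecystokinin, had 16.6 kb, and Gm33944 near Slc8a1, a sodium and calcium exchanger gene, 16.0 kb, both with none on day 3. Since Gm32817, Gm53058, Gm38661 and Gm33944 had no day 3 island, the alternatives that only take islands away could not turn their direction. Among the denser islands 5.20 and 5.60 kb were left for Gm38661 and Gm33944.

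The densest lncRNA-only island of day 0 lies over 2700054A10Rik, 163.2 kb from Tcp10c (chr17:13540401-13550600). It held 823 reads (768 to 881) over 10.2 kb, or 80.7 per kb, and met no island of day 3. The next densest among those of at least 2 kb, over Gm15983, held 50.5 per kb. Short lncRNAs covered over most of their body on both days were 4930405L22Rik (85.5 and 75.3%), 4930423M02Rik (77.9 and 70.3%), 9630013D21Rik beside the cell cycle inhibitor gene Cdkn2c (77.0 and 80.9%), Gm31324 near Acvr2a (74.0 and 88.4%) and Gm39815 near the B cell factor gene Ebf1 (92.3 and 70.5%). They were chosen by these shares. Among the denser islands none of them had islands on both days, and at equal list lengths Gm39815 had none on day 3.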

How the data were processed

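H3K9me3 native ChIP-seq was analysed in 1 library per day. The labels' protocols give a target depth and paired-end reads of 150 bases. The submitters' processing notes name Bowtie2, SICER version 1.1 and mm10; the caller settings were not given in the sources used here. The authors deposited island lists with start, last base and 1 unnamed whole number, read here as a raw count of reads, not scaled for depth or input. Borders were turned to 1-based coordinates, and 5 (day 0) and 8 (day 3) islands on X, Y and M were left out. Gene bodies, promoter windows and miRNAs came from RefSeq tables of GRCm38.p6. Shares carry 95% Wilson intervals and read counts exact 95% Poisson intervals. Scripts used Python 3.11.15, pandas 2.3.3, numpy 2.4.6 and scipy 1.17.1, and were tested on simulated data.

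LncRNAs were named by rule: the 8 most covered and the 6 with the largest excess per day, the 5 most fully covered, taking the lower of the 2 days (bodies of 5 kb or more), those on the known list, and those nearest to a T cell gene. The 5 islands with the most reads and the 5 densest of at least 2 kb were also listed. The islands and the lists were chosen with earlier results of these data known. Alternatives changed the islands counted, the overlap, the distance limit and the lncRNAs taken.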

Additional observations from a re-analysis of the deposited data

How the results depend on the processing

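Of 106 summary values under the alternatives, 57 stayed within a set range. The range was the counting interval of the main value or, for counts, a fixed fold. Some of them could not move, since cutting the day 3 list left the number, share, length, density and distance of the day 0 islands as they were. No paired analysis was possible because there is 1 library per day. The cause was not tested for any of the values below. With the day 3 list cut to the length of the day 0 list, the day 3 islands were 898, their median length 5200 bp and density 51.0 reads per kb, the overlaps 13.3% (day 0) and 19.7% (day 3), the T cell genes on day 3 9, the lncRNAs on day 0 only 916, on day 3 only 396 and on both days 302, and the ratio of covered shares reversed to 0.718. That ratio and its alternatives were chosen after seeing the data. At or above the median density, there were 705 and 1023 islands (4.30% of the day 3 list), with overlaps of 14.6 and 10.3%, lengths of 4000 and 2800 bp, densities of 36.6 and 57.4, a day 3 distance of 48.6 kb, 438, 535 and 211 lncRNAs (day 0 only, day 3 only, both) and a ratio of 1.18. With at least 50% of an island in a lncRNA the shares were 5.98 and 4.01%. Under 100 kb they were 5.64 and 3.19%, at distances of 25.6 and 30.8 kb. With no limit they were 8.43 and 6.45%, at 52 and 101 kb, with a day 3 overlap of 13.8%. Without predicted symbols there were 70 and 127 islands (0.350 and 0.267%), a day 0 overlap of 27.1%, a day 3 density of 53.0, distances of 24.1 and 31.3 kb, 1 T cell gene on each day, and 30, 50 and 27 lncRNAs. Requiring 50% overlap between days gave 13.4 and 11.4%.

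Named lncRNAs whose difference (day 3 minus day 0) changed sign were, at equal list lengths, Gm10754 (-10.2 kb), Gm11999 (-3.0), Gm28905 (-12.1) and Gm41323 (-6.60). By density they were 4930405L22Rik (4.21), 4930467D21Rik (5.60), D030024E09Rik (1.0), Gm10125 (0.200), Gm11999 (-3.40), Gm28643 (-0.600), Gm33646 (-3.80) and Gm39815 (3.59). With 50% inside a lncRNA it was Gm28905 (-0.400), under 100 kb Gm13986 (-18.4) and Pvt1 (2.60), and with no limit Mir100hg (-0.200). Of 63 named lncRNAs, the difference became 0 for 9 at equal list lengths, 16 by density, 6 with 50% inside and 13 under 100 kb. The lists give no depth per library, so no value could be scaled for it.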

Other observations

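Along the body of 6282 lncRNAs of at least 5 kb with a known strand, lncRNA-only sequence cut into 10 equal parts per body was covered over 4.19 to 5.01% in each part on day 0. On day 3 it was 5.51 to 6.56%, with the highest value in the part at the 3′ end. By chromosome, more of this sequence was covered on day 3 on 16 autosomes and less on 3. Mc2r, the gene of the corticotropin receptor, was the nearest gene of 8 islands on each day, the most of any gene over both days together, and Klf6 and Nrip1, a corepressor of nuclear receptors, of 4 on day 0 and 11 on day 3. An island lay over more than 1 lncRNA in 93 cases on day 0 and 100 on day 3, so the same reads count for each of them. Of the islands, 68.2% on day 0 and 78.4% on day 3 lay wholly inside lncRNA bodies.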
